A study of Drosophila melanogaster with 17 samples.

Results

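The windows described here are the stretches of the Drosophila melanogaster genome whose share of MNase fragments was best kept when chromatin of BG3-c2 cells was digested harder. The genome arms 2L, 2R, 3L, 3R, 4 and X were divided into 120384 windows of 1 kb, and 120147 of them held at least 50 distinct fragments, by midpoint, in the Illumina library of the low digest. For each of these eligible windows a value S was taken as log2(CPM + 1) in the low digest minus the same in the high digest. A negative S marks a window that held a larger share of fragments in the high digest. The 2402 windows in the lowest 2% of S are called resistant windows, and the 2402 windows in the highest 2% are called sensitive windows and serve as a contrast. CPM are counts of distinct fragments scaled to 1000000 distinct fragments on the 6 arms. Of the arm intervals, 77.3% were distinct in the low and 95.5% in the high Illumina digest. With every interval counted, the same rule kept 2064 (85.9%) of the resistant windows. The part of repeated intervals in the choice of windows was not tested. The low and high Illumina libraries chose the windows, so their values are given as a description of the choice.

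Micrococcal nuclease (MNase) cuts the linker DNA between nucleosomes first and trims or destroys less protected DNA as digestion proceeds. Light digestion leaves long fragments of several nucleosomes, and stronger digestion leaves shorter ones. Regions that release fragments early are often called MNase-sensitive, and regions whose fragments appear late are called MNase-resistant. The enzyme also prefers some DNA sequences over others, which is why digested DNA free of histones is used as a control.

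BG3-c2 cells derive from the larval central nervous system and Kc cells from embryos. Nuclei were digested for 20 min at 37°C. BG3-c2 digests with low, medium and high MNase concentration were each read on both platforms, Illumina and Oxford Nanopore, in 1 library per digest and platform. BG3-c2 cells treated with 50 µg double-stranded RNA (dsRNA) that targets ISWI, an ATPase subunit of chromatin remodelling complexes that space nucleosomes, were harvested on day 6. They and BG3-c2 cells given control dsRNA against GST were read on Illumina as gel-purified tetranucleosomal DNA, in 2 libraries each. Kc cells given dsRNA against the linker histone H1, with the treatment repeated on day 3, and Kc cells given GST dsRNA were read as total digests on nanopore, again in 2 libraries each. Untreated BG3-c2 cells were read on nanopore in 2 libraries, and MNase-digested genomic DNA without histones (naked DNA) of BG3-c2 in 1. Knockdown efficiency was not analysed here. Nothing in the labels says that replicates came from separate cultures, so spreads and p-values refer to these libraries and may be technical.

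The Illumina titration comprised, from low to high digest, 129080516, 57786019 and 30387171 intervals. The tetranucleosomal libraries held 7442358 to 19367619 and the nanopore libraries 32913 to 2992593, with replicate 2 of both Kc groups the shallowest. In the tetranucleosomal libraries 44.0% and 14.7% (ISWI) and 46.6% and 17.04% (GST) of intervals lay on the 6 arms, against 75.9% to 84.7% in all other libraries. The Illumina titration libraries are labelled as total digests, but their fragments over 450 bp made up 50.2%, 56.1% and 56.4% of eligible-window fragments at low, medium and high digestion. On nanopore that share was 66.9%, 52.3% and 38.4%. The tetranucleosomal libraries were at 54.0% and 54.5% (ISWI) and 52.8% and 44.7% (GST). The series design text says that the DNA read on Illumina came from the excised tetranucleosomal band, which goes against the labels of the titration. The windows may therefore have been chosen on the same kind of gel-selected material as the tetranucleosomal libraries, and size selection and platform cannot be told apart in the comparison of the 2 titrations. Of the distinct fragments of each tetranucleosomal library, at most 2.54% occurred with identical ends in the low Illumina digest and at most 1.67% in the high one. Within the resistant windows those shares were at most 3.41% and 3.20%.

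Among the resistant windows S lay between -1.45 and -0.77, with a median of -0.84, against a median of -0.05 over all eligible windows. Sensitive windows spanned 1.21 to 4.00. The median resistant window held 523 distinct fragments in the low digest and 281 in the high digest, against 614 and 171 for the median eligible window. At the 10th percentile resistant windows held 256 and 147 fragments in the 2 digests. The last windows inside the threshold were 3R:19829001-19830000, with 9.38 CPM in the low and 16.6 CPM in the high digest, and X:13394001-13395000, with 2.31 and 4.63 CPM. The first window outside it was 3L:2541001-2542000, with 12.9 and 22.6 CPM. All coordinates are in release 5 of the genome, counted from 1, and genes in these windows were not analysed here because the annotation at hand is of another release.

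The resistant windows took a much larger share of tetranucleosomal DNA than other windows did, in all 4 libraries. After ISWI dsRNA they held 5.47% of the fragments in replicate 1 (exact 95% interval 5.45 to 5.49) and 5.68% in replicate 2 (5.63 to 5.72). After GST dsRNA they held 5.34% (5.32 to 5.36) and 5.38% (5.34 to 5.41). An even spread over the eligible windows would give 2.00%. Expressed as the log2 of mean CPM in resistant windows over mean CPM in eligible windows, here called enrichment, this was 1.48 ± 0.038 after ISWI dsRNA and 1.42 ± 0.0068 after GST dsRNA (SD, n = 2 each), or 2.79-fold and 2.68-fold. None of these libraries entered the rule, but the Illumina titration that did may have been size-selected in the same way. Sensitive windows showed the reverse, with enrichments of -1.51 and -1.35 after ISWI dsRNA and -1.68 and -1.39 after GST dsRNA.

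**Figure D1:**
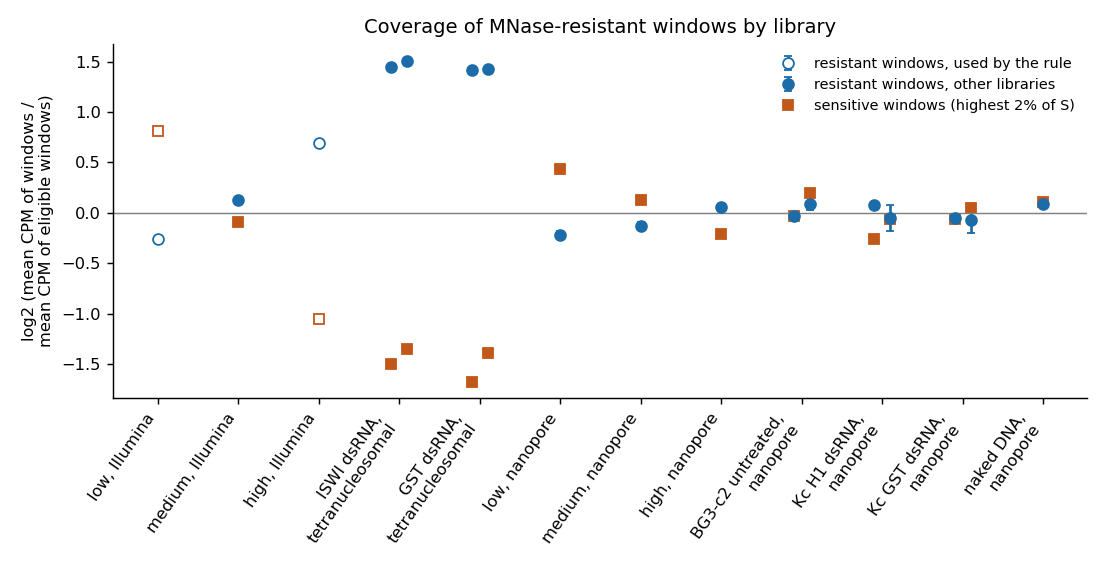
Enrichment (log2 of mean CPM over mean CPM of eligible windows) of the 2402 resistant windows (circles) and the 2402 sensitive windows (squares) in each library, with exact 95% intervals that cover counting error for the circles. Open symbols are the low and high Illumina digests, which chose the windows. The 4 tetranucleosomal libraries sit at 1.42 to 1.51 for resistant windows, whereas the nanopore libraries lie between -0.22 and 0.09.

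Most single resistant windows took part in this. The median resistant window had 19.4 and 17.9 CPM after ISWI dsRNA and 19.2 and 17.7 CPM after GST dsRNA, against 5.70 and 4.98 CPM (ISWI) and 5.99 and 5.44 CPM (GST) for the median eligible window. In replicate 1 after GST dsRNA, resistant windows ran from 5.87 CPM at the 10th percentile to 38.7 CPM at the 90th, and eligible windows from 2.23 to 16.8 CPM, so the distributions overlapped. Of the resistant windows, 1974 (82.2%) lay above the eligible median in all 4 libraries, compared with 34.8% of eligible windows. Among the 2402 windows with the highest mean GST coverage, 401 were resistant windows. That is 16.7% of resistant windows, where the high-coverage set made up 2.00% of eligible windows.

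A minority went the other way. In all 4 tetranucleosomal libraries 167 resistant windows (6.95%) lay below the eligible median, with enrichments of -1.46 and -2.21 after ISWI dsRNA and -1.33 and -1.84 after GST dsRNA. Of these, 110 (65.9%) were on X, whereas 13.1% of the 1974 high windows were. The median is that of all arms, and X held 22306 of the 120147 eligible windows. On the log2 scale, eligible windows of X averaged -0.56 and -0.51 (ISWI) and -0.58 and -0.53 (GST) relative to all eligible windows. The part of this arm difference in the split was not tested. The 167 windows were thinly covered in the titration too, with a median of 224 distinct fragments in the low digest against 556 for the high ones. Their median S, -0.84, was that of the resistant windows at large. Whether low coverage had a part in their choice was not tested.

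**Figure D2:**
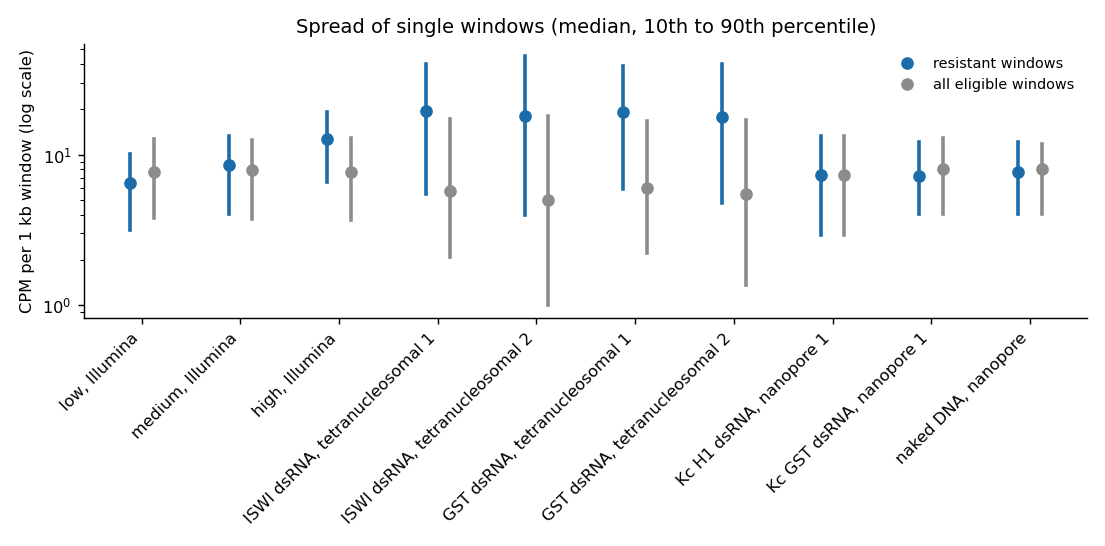
CPM per 1 kb window on a log scale in the 10 libraries with a median of at least 5 distinct fragments per eligible window. Points are medians and lines run from the 10th to the 90th percentile, for the 2402 resistant windows (blue) and all 120147 eligible windows (grey). Medians of resistant windows stand above those of eligible windows in the tetranucleosomal libraries (17.7 to 19.4 CPM against 4.98 to 5.99 CPM) and beside them in Kc and naked DNA.

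The tetranucleosomal signal followed S along its whole range and was not confined to its end. When eligible windows were cut into 50 bins by S, the enrichment in ISWI replicate 1 was 1.45 in the lowest bin, which holds the resistant windows, 1.18 in the second, 1.11 in the third and 0.89 in the fourth, and -0.89, -1.04 and -1.51 in the last 3. GST replicate 1 had 1.42, 1.16, 1.09 and 0.88 in the first 4 bins and -0.95, -1.17 and -1.68 in the last 3. Among the resistant windows themselves the fifth of lowest S was the most enriched, and the order of the others was not strict. The fifth with the lowest S had 1.68 and 1.79 after ISWI dsRNA and 1.63 and 1.69 after GST dsRNA, and the fifth nearest the threshold had 1.35 and 1.35 (ISWI) and 1.31 and 1.28 (GST). In ISWI replicate 1 the 3 groups between them had 1.42, 1.44 and 1.34. The fifth of lowest S also stood apart in naked DNA, at 0.36 against -0.048 to 0.058 in the other groups. It holds the window densest in naked DNA, described further on, and the part of DNA without histones in this order was not tested.

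**Figure D3:**
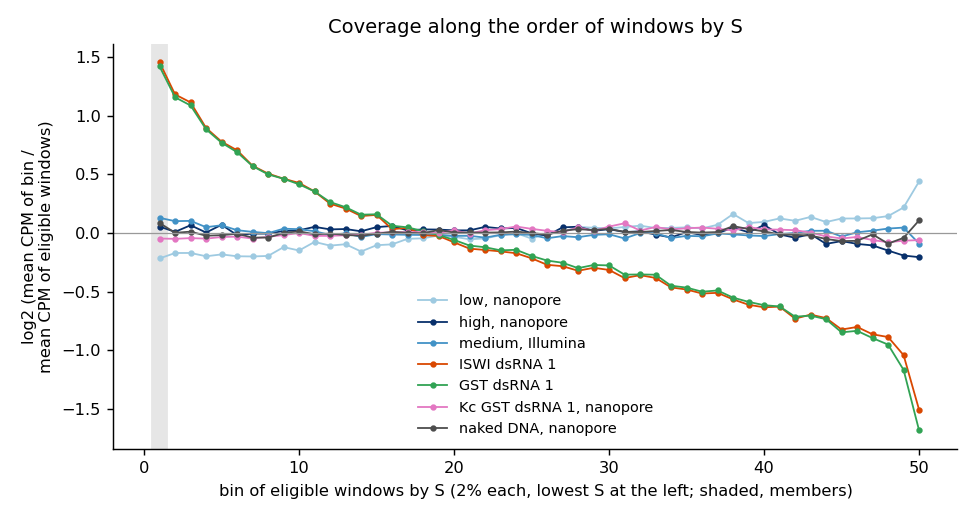
Enrichment of 50 bins of eligible windows ordered by S, lowest S at the left, in 7 libraries; the shaded bin holds the resistant windows. The tetranucleosomal ISWI and GST libraries fall from 1.45 and 1.42 to -1.51 and -1.68, the low nanopore digest runs from -0.22 to 0.44, and the bins lie between -0.09 and 0.11 in naked DNA and between -0.08 and 0.08 in Kc GST replicate 1.

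The medium Illumina digest lay between its neighbours. From low to high digest, resistant windows had enrichments of -0.26, 0.13 and 0.69. The medium value, which the rule did not use, corresponds to 2.19% of fragments (exact 95% interval 2.18 to 2.19), and 58.2% of resistant windows were above the eligible median. It is small, and with S computed on a pseudocount of 0.5 CPM it was 0.0026, so its size depends on that setting. Sensitive windows had an enrichment of -0.09 in the medium digest.

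On nanopore the same order of digests appeared at a smaller size. Resistant windows had enrichments of -0.22 in the low digest (exact 95% interval -0.26 to -0.18), -0.13 in the medium (-0.16 to -0.09) and 0.05 in the high (0.016 to 0.092). The difference of high minus low was 0.27 on nanopore, against 0.96 on Illumina, where it is fixed by the choice of windows. Sensitive windows ran in the opposite order on nanopore, with 0.44, 0.13 and -0.21. The intervals of the 3 digests did not overlap for resistant windows, but they cover counting error only, and each digest is 1 library and has no replicate check. If both platforms read the same digested material, variation between digests is shared with the choice of windows. The nanopore order is then not an independent check of that choice.

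Untreated BG3-c2 total digests showed no shared shift. Their enrichments were -0.032 (exact 95% interval -0.060 to -0.0046) and 0.089 (0.025 to 0.15), so the 2 libraries fell on opposite sides of 0. In Kc cells the values were 0.078 and -0.048 after H1 dsRNA and -0.047 and -0.068 after GST dsRNA, and the H1 minus GST difference was 0.13 in replicate 1 and 0.019 in replicate 2. The exact 95% intervals of replicate 1, 0.054 to 0.10 (H1) and -0.066 to -0.029 (GST), lay on opposite sides of 0 and cover counting error only. The replicate 2 libraries each had 0 fragments in the median window, and their intervals, -0.18 to 0.078 (H1) and -0.20 to 0.059 (GST), included 0. An exact permutation test of 2 libraries against 2 cannot reach 0.05, and no test of these differences was made. Sensitive windows had -0.26 and -0.066 after H1 dsRNA and -0.061 and 0.049 after GST dsRNA.

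In naked DNA the enrichment was 0.085 (exact 95% interval 0.073 to 0.097), but the median resistant window had 7.65 CPM against 8.06 CPM for the median eligible window. Of the resistant windows, 41.5% lay above the eligible median of 20 fragments, and windows tied with that median were not counted as above. The mean rested partly on 1 window, 2L:627001-628000, with 684 CPM in naked DNA, where the next highest, the window beside it, had 203. Without it, an alternative chosen after seeing the data, the enrichment was 0.039. Sensitive windows had 0.11 in naked DNA.

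The 5 windows of lowest S were 2L:4938001-4939000, 3R:9500001-9501000, 2L:5571001-5572000, 2L:627001-628000 and 4:88001-89000, with S of -1.45, -1.44, -1.42, -1.36 and -1.30. They did not behave alike in tetranucleosomal DNA. The first had 98.5 and 280 CPM after ISWI dsRNA, 88.3 and 218 CPM after GST dsRNA and 13.3 CPM in naked DNA. It was high in all 4 tetranucleosomal libraries, and its CPM in the titration was 17.6, 27.4 and 49.9 on Illumina from low to high digest. The window at 3R:9500001-9501000 had 8.55 and 5.98 CPM (ISWI) and 8.80 and 3.40 CPM (GST), near the eligible median, with 3.72, 5.97 and 11.8 CPM from low to high Illumina digest. The window at 2L:5571001-5572000 was low throughout, with 2.28 and 0.997 CPM after ISWI dsRNA and 3.40 and 0 CPM after GST dsRNA. Its S came from 3.08 CPM in the low and 9.94 CPM in the high digest, and the medium digest, at 3.07 CPM, stayed at the low value.

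The window at 2L:627001-628000 had 224 and 527 CPM after ISWI dsRNA and 182 and 581 CPM after GST dsRNA, beside its 684 CPM in naked DNA. It was dense in tetranucleosomal and in naked DNA. In the Illumina titration it had 7.16, 10.5 and 19.9 CPM from low to high digest. The median eligible window had 7.64, 7.86 and 7.69 CPM there. In the high digest, which helped choose the windows, the eligible 90th percentile was 12.9 CPM. The nanopore titration gave this window 24.0, 30.7 and 0 CPM in the same order. The window at 4:88001-89000 had 7.79 and 4.98 CPM (ISWI) and 6.92 and 7.48 CPM (GST), with 15.7 CPM in naked DNA. Of the 5 windows, then, 2 stood high in all 4 tetranucleosomal libraries.

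Resistant windows were scattered along the arms. They made up 1.81% of eligible windows on 2L, 1.93% on 2R, 2.43% on 3L, 1.91% on 3R and 1.98% on X, and 0.593% on chromosome 4 (8 of 1348), the small and largely heterochromatic chromosome. The 1 Mb next to the centromeres of the 5 large arms held 35 in 4914 windows (0.712%), the 1 Mb next to their telomeres 1.93% and the rest of the arms 2.08%. On 3L they were most frequent in the tenth of the arm nearest the telomere, where 118 of 2454 windows (4.81%) qualified, and least frequent in the tenth nearest the centromere (1.14%). Total coverage differs by arm: in naked DNA, eligible windows of X averaged -0.69 and those of 3L 0.33 relative to all eligible windows on the log2 scale, and in Kc GST replicate 1 the same arms averaged -0.03 and 0.013. The part of this arm difference in the choice of windows was not tested.

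Measured against eligible windows of their own arm, resistant windows were enriched in tetranucleosomal DNA on every arm. After ISWI dsRNA the values were 1.61 and 1.69 on 3L, the highest, and 1.13 and 1.05 on X, the lowest. After GST dsRNA they were 1.58 and 1.62 on 3L and 1.14 and 0.99 on X. Chromosome 4, with 8 windows, had 1.23 and 1.35 (ISWI) and 1.20 and 1.32 (GST). Relative to all eligible windows, the 35 centromere-proximal windows had 2.01 and 2.33 after ISWI dsRNA and 1.81 and 2.20 after GST dsRNA. They were also above all eligible windows in untreated BG3-c2 (0.64 and 0.44, where all eligible windows of those regions had 0.070 and -0.27) and in naked DNA (0.28, against -0.070). In Kc cells they stood at 1.49 and 1.51 after H1 dsRNA and 1.12 and 1.56 after GST dsRNA, and all eligible windows of those regions stood at 0.46 and 0.47 (H1) and 0.45 and 0.44 (GST).

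The resistant windows formed 2097 runs, of which 1857 were single windows, and 545 windows (22.7%) had an adjacent resistant window. Windows with such a neighbour were more enriched in tetranucleosomal DNA than those without one, at 1.70 and 1.81 against 1.37 and 1.40 after ISWI dsRNA and at 1.66 and 1.74 against 1.34 and 1.32 after GST dsRNA. The same contrast appeared in naked DNA, at 0.34 with a neighbour and 0.00094 without one, and in the low Illumina digest, at -0.089 and -0.32. The windows with a neighbour included 2L:627001-628000, the resistant window densest in naked DNA, at 684 CPM. The next densest, at 203 CPM, was the window beside it. The part of this pair in the naked DNA contrast was not tested. Nor was the part of the naked DNA and low digest contrasts in the tetranucleosomal contrast. The 4093 neighbouring windows that were not themselves resistant had a median S of -0.33, between that of resistant windows (-0.84) and that of eligible windows (-0.05). The low S thus extended beyond the window chosen.

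The longest runs were 6 kb, at 3L:11606001-11612000 and 3L:2064001-2070000. The first averaged 19.4 and 26.9 CPM per window after ISWI dsRNA and 19.7 and 27.7 CPM after GST dsRNA, with 4.97 CPM in naked DNA. The second had 15.0 and 25.6 CPM (ISWI) and 15.6 and 25.0 CPM (GST), with 14.8 CPM in naked DNA. Both stood above the eligible median in all 4 tetranucleosomal libraries, the first from below-median naked DNA and the second from above-median naked DNA. From low to high Illumina digest the first had 9.66, 12.3 and 19.0 CPM and the second, far denser there, 33.3, 44.6 and 62.4 CPM. In the nanopore titration the first had 3.99, 1.40 and 5.63 CPM and the second 7.98, 11.2 and 5.63 CPM. Next came 5 kb runs at X:1950001-1955000, with 35.0 and 34.3 CPM after ISWI dsRNA and 34.0 and 33.5 CPM after GST dsRNA, and at 3L:3173001-3178000, with 22.9 and 18.7 CPM (ISWI) and 23.1 and 21.9 CPM (GST). Of the 8 runs of 4 kb, the one of lowest mean S, at 3L:9698001-9702000, had 28.5 and 24.9 CPM (ISWI) and 29.9 and 28.2 CPM (GST). In untreated BG3-c2 nanopore replicate 1 the 5 runs had 4.18, 15.1, 7.71, 7.33 and 6.27 CPM in the same order, at or below the eligible median of 7.71 CPM in all but the second.

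Around the resistant windows tetranucleosomal coverage formed a peak on a raised background. In ISWI replicate 1 the enrichment was 1.45 at the window, 0.81 at 1 kb on either side, 0.52 and 0.51 at 2 kb and 0.31 at 10 kb before it. GST replicate 1 had 1.42 at the window, 0.79 at 1 kb on either side, 0.50 and 0.48 at 2 kb and 0.30 at 10 kb before it. The high Illumina digest, which chose the windows, had 0.69 at the window and 0.30 at 1 kb. In the low nanopore digest there was a dip, with -0.22 at the window, -0.10 and -0.17 at 1 kb and 0.017 and 0.029 at 2 kb. At 10 kb before and after, naked DNA had 0.095 and 0.081 and the low Illumina digest 0.13 and 0.10. The low nanopore digest had 0.095 and 0.063 there, and Kc GST replicate 1 had 0.022 and -0.0083. A smaller raised background was thus also present in libraries without the peak.

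**Figure D4:**
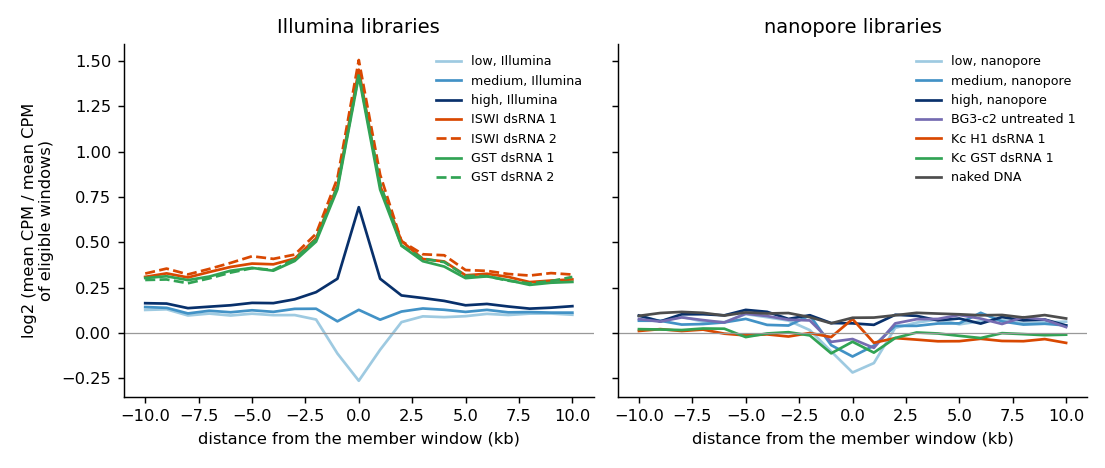
Enrichment in 1 kb windows from 10 kb before to 10 kb after the resistant windows, for Illumina libraries (left) and nanopore libraries (right). The 4 tetranucleosomal libraries peak at the window (1.42 to 1.51) and stay near 0.3 at 10 kb. The low digests dip at the window on both platforms (-0.26 on Illumina, -0.22 on nanopore). Naked DNA is flat and slightly above 0, between 0.05 and 0.12.

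Fragments in the resistant windows were long, a property the rule did not use directly. The rule counted fragments in Illumina libraries that hold at most 1500 bp and may have been size-selected. The part of fragment length in the choice of windows was not tested. In the nanopore titration, fragments over 450 bp made up 76.4%, 66.0% and 54.4% of those in resistant windows from low to high digest, and 66.9%, 52.3% and 38.4% of those in eligible windows. In untreated BG3-c2 libraries the shares were 82.8% and 81.4% in resistant windows and 73.9% and 70.1% in eligible windows. In all 17 libraries the share was higher in resistant than in eligible windows and lower in sensitive than in eligible windows. That holds for Kc cells, with 85.4% and 84.9% in resistant windows against 81.3% and 78.8% in eligible windows after H1 dsRNA, and 84.0% and 94.9% against 75.5% and 91.1% after GST dsRNA.

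It also holds for naked DNA, where fragments over 450 bp made up 58.4% in resistant windows, 47.0% in eligible windows and 44.4% in sensitive windows. Resistant windows thus gave longer fragments without histones too. The part of the DNA sequence in these lengths was not tested, and base composition was not analysed here. In tetranucleosomal libraries, which were selected for length on a gel, the shares were 57.1% and 60.6% in resistant windows against 54.0% and 54.5% in eligible windows after ISWI dsRNA, and 57.0% and 52.2% against 52.8% and 44.7% after GST dsRNA. Despite the gel step, fragments up to 250 bp made up 28.0% to 35.2% of the resistant-window fragments of these libraries.

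Split by fragment length, the enrichments of the high nanopore digest took opposite signs. Resistant windows there had -0.68 for fragments up to 250 bp, -0.32 for those over 250 to 450 bp and 0.56 for those over 450 bp. In the low nanopore digest all 3 classes were below 0, at -0.64, -0.72 and -0.024. Tetranucleosomal libraries were enriched in each class, with 1.36, 1.33 and 1.53 in ISWI replicate 1 and 1.30, 1.26 and 1.53 in GST replicate 1. Naked DNA had -0.36, -0.23 and 0.40 for the same classes. For fragments of 500 to 1000 bp, the size of tri- to pentanucleosomes, the nanopore titration gave -0.45, -0.05 and 0.50 from low to high digest, ISWI libraries 1.62 ± 0.10 and GST libraries 1.62 ± 0.11 (SD, n = 2 each), and naked DNA 0.26. Restricting nanopore reads to that size brought the high digest nearer to the tetranucleosomal libraries, yet it stayed well below them.

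**Figure D5:**
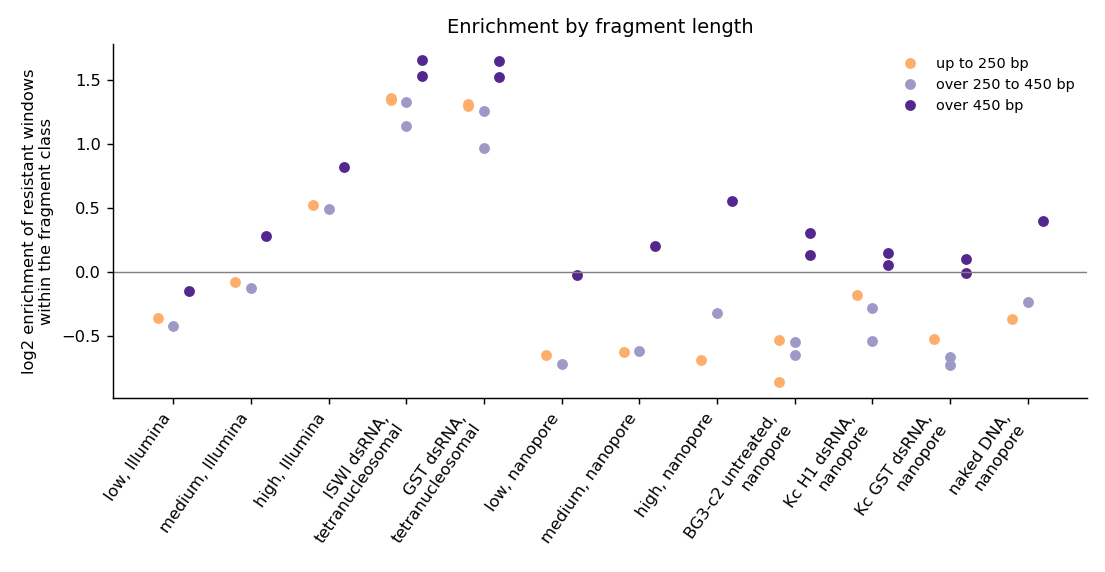
Enrichment of the resistant windows within 3 classes of fragment length, by library; groups of 2 libraries have 2 points per class, and Kc replicate 2 is left out up to 250 bp, where its resistant windows held 6 fragments or none. Nanopore libraries are below 0 for both short classes (-0.68 and -0.32 in the high digest) and the tetranucleosomal libraries lie at 0.97 or above in every class.

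Within the range of 500 to 1000 bp the median fragment was longer in resistant windows as well, except in Kc GST replicate 2 and the low Illumina digest. It was 659 and 655 bp in resistant windows and 644 and 635 bp in eligible windows after ISWI dsRNA, and 677 and 687 bp against 669 and 668 bp after GST dsRNA. In naked DNA it was 672 bp in resistant windows and 649 bp in eligible windows. Longer medians in resistant windows were thus also measured without histones.

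Regularity of fragment ends was measured as the size of the strongest cosine wave, among periods of 150 to 250 bp, in the autocorrelation of left fragment ends, as a percent of its trend. In the Illumina titration it was 1.35%, 1.48% and 1.69% in resistant windows from low to high digest and 0.859%, 0.944% and 1.19% in eligible windows, at periods of 172, 166 and 166 bp against 177, 178 and 174 bp. In the tetranucleosomal libraries resistant windows had the larger amplitude in 3 of 4 libraries from left ends and in 4 of 4 from right ends. From left ends, ISWI libraries had 1.04% and 1.70% in resistant windows against 0.899% and 1.52% in eligible windows, and GST libraries 1.51% and 1.13% against 1.47% and 1.56%. From right ends, ISWI libraries had 1.33% and 2.61% against 0.971% and 1.80%, and GST libraries 1.77% and 2.18% against 1.56% and 1.69%. The order in GST replicate 2 thus depended on which end was used. Naked DNA had 0.849% against 0.665% from left ends. Outside the titration the fitted periods often differed, so the amplitudes compared need not belong to the same wave. From left ends, ISWI libraries had 155 and 177 bp in resistant windows, and 221 bp in eligible windows in each. Naked DNA had 153 bp against 250 bp, the longest period tried. Periods were closer from right ends in ISWI replicate 2 (158 against 154 bp) and GST replicate 1 (171 against 177 bp). The peak of coverage at the resistant windows lowers pair counts at long lags, and its part in these amplitudes and periods was not tested.

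No difference in tetranucleosomal coverage between ISWI and GST dsRNA was called in the resistant windows by a fit without a replicate block. A fit with the replicate number as a block did call windows, and its counts are given in the closing section. The ISWI minus GST difference in enrichment was 0.035 in replicate 1 and 0.079 in replicate 2, a mean of 0.057 where the SD between libraries of a group was up to 0.038. The share of intervals on the arms went with the replicate number in both groups, as given above, and its part in these values was not tested. Window by window, log2(CPM + 1) was compared with limma in 105971 eligible windows that held at least 40 fragments over the 4 libraries, 2348 of them resistant. No window was called at an adjusted p under 0.05 with Benjamini-Hochberg adjustment over all of them, so that 0% of windows were called higher and 0% lower, and 0 resistant windows in either direction. The lowest adjusted p was 0.965. At an unadjusted p under 0.05 limma listed 4767 of the 105971 windows, among them 75 of the 2348 resistant ones, and no other tool was run.

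The median ISWI minus GST change was 0.03 over resistant windows and -0.04 over all windows tested, on the log2(CPM + 1) scale. The sign of these small values depended on the setting. Quantile normalization gave -0.031 over resistant windows and 0.00084 over all, fragments of 500 to 1000 bp gave -0.021 and -0.023, and leaving out GST replicate 2 gave -0.027 and -0.082. Without ISWI replicate 1 the values were -0.0025 and -0.073. Both ISWI libraries lay above both GST libraries in 407 resistant windows (17.3%, against 14.3% of all windows tested) and below both in 351 (14.9%, against 18.8%). The 5th to 95th percentiles of the change were -0.54 to 0.43 in resistant windows and -0.77 to 0.57 in all windows. Without ISWI replicate 1, which leaves 1 ISWI library, limma did call windows, most of them lower. The share called was no larger among resistant windows than among all windows tested. That fit assumes the lone library to vary like the GST libraries.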

How the data were processed

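Each deposited table lists 1 aligned fragment per line as arm, start and end. In 9 nanopore tables the authors also deposited a score, used only in an alternative with scores of at least 20. The submitters' processing notes name dm3, Bowtie 1.1.1 and bedtools, without roles, and filters are not given in the sources used here. The 6 titration tables were matched to samples by name. Repeated intervals were counted once and assigned to 1 kb windows by midpoint. The members and the contrasts were chosen with earlier results of these data known. Windows named are the 5 of lowest S, the 5 longest runs (ties by lowest mean S), and windows at the threshold. Members and enrichments were computed with numpy 2.4.6. Shares have exact Clopper-Pearson 95% intervals, which cover counting error only, since each was computed from the distinct fragments of 1 library. The ISWI comparison used limma 3.58.1 (lmFit, eBayes with trend) on log2(CPM + 1) without a block, tested on simulated data. Other comparisons have no test. Alternatives covered counting, length, thresholds, pseudocounts, filters, normalization and left-out libraries.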

Additional observations from a re-analysis of the deposited data

How the results depend on the processing

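With the 2 replicate numbers as a replicate block, limma called 65 of 105971 windows (37 higher, 28 lower) in place of 0. Among them were 4 of the 2348 resistant windows tested. The numbers give only 2 pairs and are not known to pair the libraries (correlation of same-numbered deviations 0.145). Leaving out 1 library at a time gave 0 to 3058 calls, and 0 to 55 among resistant windows, the highest without ISWI replicate 1 and 4 calls without ISWI replicate 2. The other limma settings called 0. The tetranucleosomal GST enrichment of 1.42 stayed positive in every setting: 1.41 with every interval counted, 1.41 from 120 bp, 1.44 without dense windows, 1.52 and 1.25 for the lowest 1% and 5% of S, 1.45 with a minimum of 200 fragments, 1.31 with a pseudocount of 0.5 CPM, 0.95 with S from low minus medium digest, which shared 25.4% of its windows, and 1.69 by medians. The medium Illumina value of 0.13 became, for the settings in that order, 0.18, 0.12, 0.14, 0.14, 0.11, 0.16, 0.0026 and, by medians, 0.12. The nanopore high minus low difference was 0.34 for the lowest 1% of S. The ISWI minus GST difference was 0.11 by medians. Untreated BG3-c2 turned from 0.028 to -0.065 with a pseudocount of 0.5 CPM, and ranged from -0.032 to 0.089 with 1 library left out. Kc GST, at -0.057, was -0.031 with every interval, -0.089 for the lowest 1%, -0.040 with the minimum of 200 and -0.016 with S from low minus medium. Naked DNA, at 0.085, turned to -0.074 by medians, and was 0.063 with every interval, 0.15 and 0.037 for the lowest 1% and 5%, 0.11 with the minimum of 200, 0.0078 with the pseudocount of 0.5 CPM, 0.041 with S from low minus medium and 0.039 without its densest member, the last chosen after seeing the data. Regularity in the medium Illumina digest was 1.63% from right ends in place of 1.48%. The cause of these changes was not tested. Another 76 values stayed within their spread or kept their count. Shallow nanopore libraries, with a median of 0 to 4 fragments per eligible window in all but replicate 1 of both Kc groups and naked DNA, limit statements to sums over windows.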
